A study of Mus musculus with 8 samples.

Results

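The cytosolic ribosomal protein genes of the posterior knee joint capsule were followed in 8 mouse RNA-seq libraries, 4 from naive mice and 4 from mice whose knee had been held in a cast. Members were taken by symbol: Rpl, Rps or Rplp followed by a digit, less the Rps6k kinases and the pseudogenes whose symbols end in -ps and a number, with a mean of at least 0.5 over the 8 libraries. Of 102 symbols that matched the pattern, 10 kinases and 6 pseudogenes were left out and none fell under the mean of 0.5, which left 86 members of 16464 genes in the table. They comprise 43 large subunit genes, 30 small subunit genes, 3 genes of the P stalk, 9 paralogs or expressed retrocopies, and Rps19bp1, which shares the symbol pattern but encodes a protein that binds RPS19 rather than a ribosomal protein.

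All mice were wild-type C57BL/6, and the protocol names adult males as those put in casts. The labels give every animal as 10 weeks old, and the design text gives 8 weeks for the mice that were immobilised. The control group (n = 4) is labelled naive, and in the cast group (n = 4) the knee was fixed at an angle of 140 degrees for 2 weeks. No sham cast and no opposite limb is among these libraries, and nothing says whether the replicates of a group came from separate animals. The p-values therefore reflect the spread among these 8 libraries, which may be technical. RNA was depleted of ribosomal RNA before library preparation, so it is the messenger RNAs of the ribosomal proteins that were measured here and not the ribosome's own RNA.

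A cytosolic ribosome is built from a small subunit, which reads the messenger RNA, and a large subunit, which joins amino acids. Each is a scaffold of ribosomal RNA with a fixed set of proteins, most of them present in a single copy, so the genes are known to be expressed together and at high levels. Most of these messenger RNAs begin with a C followed by a run of pyrimidines, the terminal oligopyrimidine (TOP) motif, through which mTOR and LARP1 regulate their translation and stability. These transcripts are known to be abundant in growing and dividing cells.

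RefSeq start sites (GRCm38.p6) were listed for 65 of the 86 members. A run of at least 8 pyrimidines that began with C lay between 10 bases before and 40 bases after a listed start in 41 of the 65 members (63.1%), against 4861 of 27025 genes with a listed start (18%). The start regions of 4 members that passed the test in the comparison of cast with naive libraries are shown first. They show runs of at least 8 and, in Rps25, none of that length within the window searched. The longest run in that window is in capitals, with 8 bases before it.
Rps6 (chr4:86857347-86857376, minus strand): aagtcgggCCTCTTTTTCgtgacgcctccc
Rps15a (chr7:118116126-118116155, minus strand): tctgccatCTTCCCTCgccggtgagtgagt
Rpl36a (chrX:134585673-134585702, plus strand): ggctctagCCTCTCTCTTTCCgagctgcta
Rps25 (chr9:44407731-44407760, plus strand): ctacacgaCTCTCTgagcttcgccatggta
The run was 10 bases long in Rps6, 8 in Rps15a and 13 in Rpl36a, and 6 in Rps25. Its first base lay at -1 from the listed start in Rps6, 1 in Rps15a, 28 in Rpl36a and 26 in Rps25. Upstream of the listed start of Rps25 a longer C-led pyrimidine run began before the window searched, and so was not counted. Start regions of 2 members with unusual values follow, and are taken up with their values.
Rps27 (chr3:90213629-90213658, minus strand): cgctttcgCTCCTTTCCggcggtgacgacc
Rpl22l1 (chr3:28805503-28805532, plus strand): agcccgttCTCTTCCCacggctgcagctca
Within the 300 bases listed around each start (250 before and 50 after), the ETS-family motif CCGGAAG was found on either strand in 25 of the 65 members (38.5%), against 9.93% of all genes with a listed start. The 100 bases before the start of Rps6 hold it near their far end.
Rps6 (chr4:86857368-86857467, minus strand, motif in capitals): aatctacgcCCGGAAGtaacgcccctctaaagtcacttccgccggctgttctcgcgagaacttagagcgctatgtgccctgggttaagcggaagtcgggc
The Sp1 motif GGGCGG occurred in 60.0% of members against 38.2% of all genes, and the YY1 motif AAGATGGC in 9.23% against 3.19%. A TATAAA sequence was present in 10.8% of members against 15.7%. These matches describe letters in the reference, and binding was not measured. The 27025 genes used for comparison were not limited to the 15120 tested here. A run counted in the window searched need not lie at the first base, as a TOP motif does.

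The libraries held between 5956148 and 7381255 recovered reads, except naive replicate 4, which held 1503880. At that depth 1 read was worth 0.647, against 0.133 to 0.165 in the others, and 2264 of its genes were at 0, against 330 to 608. How far depth accounts for these zeros was not tested. Naive replicate 4 is therefore shown apart throughout. Genes that mark skeletal muscle (a list of 17) differed widely between libraries, with a mean log2(value + 1) of 6.68, 6.10 and 6.90 in naive replicates 1 to 3, 2.88 in naive replicate 4, and 3.87, 1.43, 1.42 and 2.76 in the cast libraries. Of these 17 muscle genes, 8 were lower in cast libraries over all 8 libraries and all 17 without naive replicate 4. Beside these and the counts that follow, 6.51% of all genes tested rose and 5.46% fell over all 8 libraries. Without naive replicate 4 these shares were 9.15% and 8.52%. At an unadjusted p under 0.05, 26.6% of all genes differed over all 8 libraries and 32.7% without naive replicate 4. All 9 erythroid genes, 7 of 11 genes of neutrophils and marrow precursors and 3 of 4 T cell genes tested were higher in cast libraries with or without naive replicate 4, and 2 of 7 fat cell genes were lower with or without it. The erythroid entries Hbb-b2 and Hbb-bt held identical values in every library, so they are not separate measurements. Of 8 capsule fibroblast genes, 1 rose with or without naive replicate 4 and 1 fell without it, and none of 5 B and plasma cell genes or 4 endothelial genes passed in either fit, with 0 and 1 of the former and 0 of the latter at an unadjusted p under 0.05. The 7 cell division genes all rose over all 8 libraries, and 4 of 7 did without naive replicate 4. In a bulk tissue such as this, fewer cells of a type and less RNA per cell cannot be told apart, and the part of these cell populations in the ribosomal protein values was not tested.

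As a group, the 86 members took a larger part of the cast libraries than of naive replicates 1 to 3. Their summed values were 1.68%, 1.11% and 2.08% of the library total in naive replicates 1, 2 and 3 (mean 1.62% ± 0.490, SD, n = 3) and 2.33%, 2.61%, 3.76% and 4.13% in cast replicates 1 to 4 (mean 3.21% ± 0.869, SD, n = 4). Naive replicate 4 stood at 2.90%, above cast replicates 1 and 2, so the groups did not overlap among the other 7 libraries but did overlap with it included. The cast libraries fell into a lower pair, replicates 1 and 2, and a higher pair, replicates 3 and 4. The 17 muscle genes took 0.310% to 0.634% of naive replicates 1 to 3, 0.0201% of naive replicate 4 and at most 0.0827% of the cast libraries. Naive replicate 4 thus had a ribosomal protein share and a muscle share that both lay within the range of the cast libraries.

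**Figure D1:**
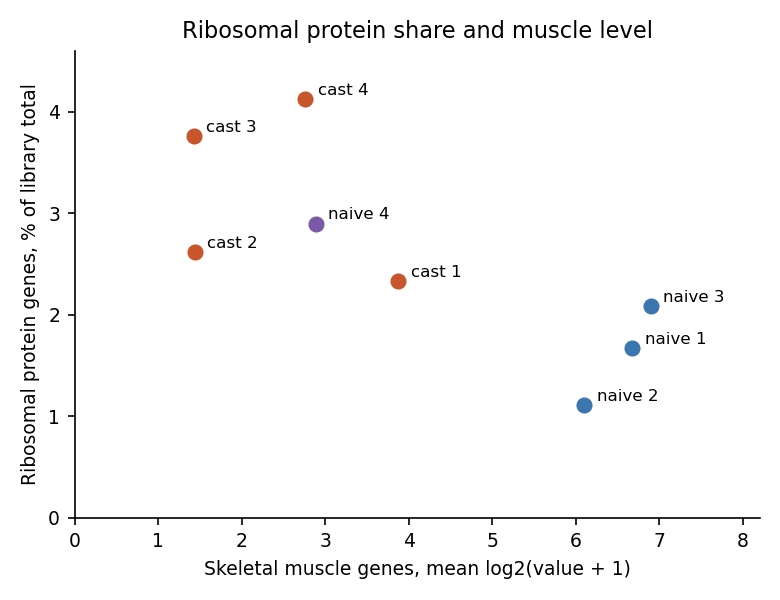
Share of each library's total taken by the 86 ribosomal protein genes (vertical axis, percent) against the mean log2(value + 1) of 17 skeletal muscle genes (horizontal axis), 1 point per library. Naive replicates 1 to 3 lie at high muscle level and a share of at most 2.08%, while naive replicate 4 (2.90%) lies among the cast libraries.

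Members moved together from library to library. The median member deviated from the mean of naive replicates 1 to 3 by 0.11, -0.49 and 0.39 on the log2(value + 1) scale in those 3 libraries. Around those medians the SD across members was 0.13, 0.24 and 0.22, so most members followed the library they were in. In cast replicates 1 to 4 the median member stood at 0.50, 0.67, 1.20 and 1.32, with an SD across members of 0.33, 0.42, 0.53 and 0.49. In naive replicate 4 the median was 0.82 and the SD 1.08, larger than in any of the other 7 libraries. The ratio of summed large subunit to summed small subunit values was 1.39, 1.47 and 1.42 in naive replicates 1 to 3 and 1.36 to 1.39 in the cast libraries, and it was 1.65 in naive replicate 4.

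**Figure D2:**
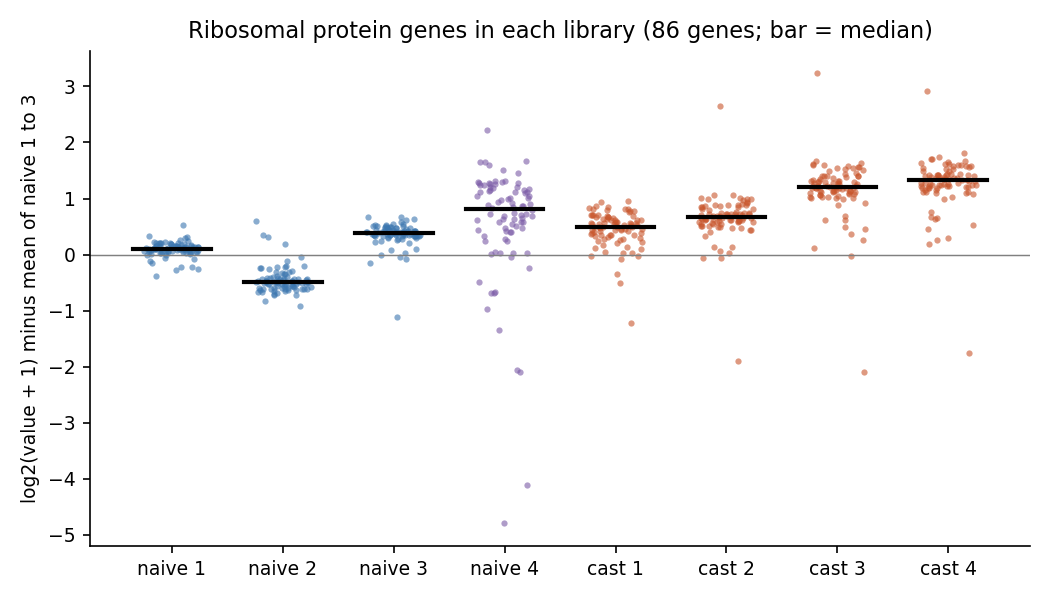
Deviation of each of the 86 genes from its mean in naive replicates 1 to 3, on the log2(value + 1) scale, by library, with 1 point per gene and a bar at the median. Medians run from -0.49 to 0.39 in naive replicates 1 to 3 and from 0.50 to 1.32 in the cast libraries, and the points of naive replicate 4 spread from -4.79 to 2.22.

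Compared over all 8 libraries, 8 of 86 members rose in cast libraries and none fell (limma, adjusted p at most 0.05 over 15120 genes), with 41 members higher and 1 lower (Rpl3l) at an unadjusted p under 0.05. Of all genes tested, 6.51% rose and 5.46% fell, and at an unadjusted p under 0.05 14.4% were higher and 26.6% differed in either direction. The log2 fold change was positive for 83 of 86 members and for 55.7% of all genes, with a median of 0.72 (1.65-fold) for the members and 0.07 for all genes. Small subunit genes made up 6 of the 8 (6 of 30), large subunit genes 2 of 43, and none of the 3 P stalk genes or 9 paralogs passed. In 19 members every cast value lay above every naive value, which was so for 11.1% of all genes, and in none did every cast value lie below (9.39% of all genes).

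Without naive replicate 4, 50 members rose and 1 fell, against 9.15% and 8.52% of all genes. The median log2 fold change was then 0.92 (1.89-fold) for members and 0.01 for all genes, and it was positive for 85 of 86 members and for 50.9% of all genes. The 50 comprised 25 of 43 large subunit genes, 21 of 30 small subunit genes, 2 of 3 P stalk genes and 2 of 9 paralogs or retrocopies. They included all 8 members that had risen over all 8 libraries. Of the 28 subunit and stalk genes that did not pass, 25 had a log2 fold change above 0.6 and 20 an adjusted p under 0.1, so few of them stood far from the rest. Cast values lay wholly above the 3 naive values in 54 members (15.5% of all genes) and wholly below in 1 (15.1% of all genes). By edgeR's quasi-likelihood test on recovered reads, 10 members rose and 1 fell over all 8 libraries (7.29% and 6.20% of all genes), and 44 rose and 1 fell without naive replicate 4 (9.31% and 8.10%). DESeq2 called 22 higher and 1 lower over all 8 libraries (9.68% and 8.53% of all genes). With libraries weighted by their fit (limma's array weights) 73 members rose (14.3% of all genes), with the trend on GC content removed 18 (8.36%), and with quantile normalisation 14 (5.34%), and each of these counts included all 8.

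**Figure D3:**
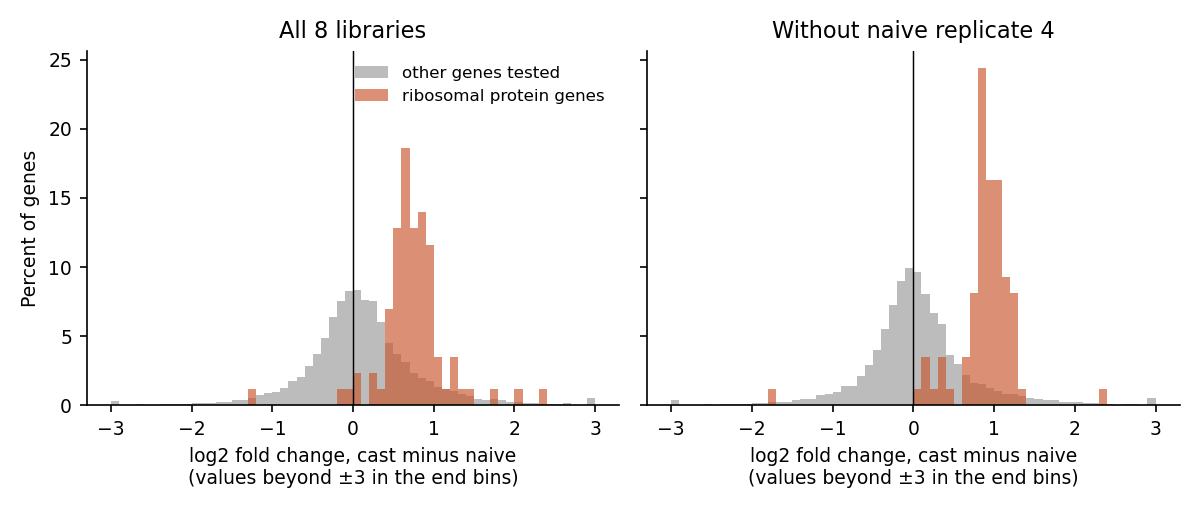
Distribution of log2 fold changes, cast minus naive, for the 86 ribosomal protein genes and for the other genes tested, as percent of each set of genes, over all 8 libraries (left) and without naive replicate 4 (right). The median of the members is 0.72 on the left and 0.92 on the right, while that of all genes stays near 0 (0.07 and 0.01).

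The count over all 8 libraries rested on single libraries of either group. It was 0 without cast replicate 3 (3.39% of all genes rose), 2 without cast replicate 4 (5.80%) and 4 without cast replicate 2 (3.83%). Leaving out naive replicate 2 gave 2 (3.76%), and leaving out naive replicate 1 gave 3 (5.24%). The count was 7 without naive replicate 3 (3.74%) and 8 without cast replicate 1 (5.13%). With the mean muscle level as a covariate, 8 members rose (19.0% of all genes), of which 3 were among the first 8. The median log2 fold change was then 0.16. Naive replicate 4 (2.88) was the only naive library within the muscle range of the cast libraries (1.42 to 3.87), so this fit leaned on that library. Rpl39, low in naive replicate 4, went from a log2 fold change of 2.37 to 5.33 with the covariate. Rpl41, high in it, went from 0.61 to -0.28. Muscle level separated naive replicates 1 to 3 from the cast libraries completely, so among those 7 libraries it and the cast cannot be told apart: with the covariate and without naive replicate 4, no member passed limma's test, none was at an unadjusted p under 0.05, and 0.0463% of all genes rose.

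The pair of members with the smallest p-values were small subunit genes. Rps15a, a core protein of the small subunit, stood at 127, 71.0, 144 and 77.6 in naive replicates 1 to 4 and at 197, 216, 334 and 368 in cast replicates 1 to 4. All 4 cast libraries were above all 4 naive libraries, and naive replicates 2 and 4 were the low ones. It rose by 1.42 ± 0.30 (log2 fold change ± SE; 2.67-fold; limma adjusted p = 0.0151), and by 1.30 without naive replicate 4 (adjusted p = 0.0160). Rps25, which is known for its part in initiation on internal ribosome entry sites, stood at 146, 89.1, 196 and 132 against 251, 274, 364 and 413. Here too the groups did not overlap, and the log2 fold change was 1.23 ± 0.26 (SE; limma adjusted p = 0.0163). Of the 8, these are the pair that kept passing limma's test without each library except cast replicate 3, without which the adjusted p was 0.0531 for Rps15a and 0.0571 for Rps25.

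Rps13, a small subunit protein near the interface with the large subunit, stood at 137, 80.3, 152 and 100.3 in naive libraries and 175, 226, 329 and 390 in cast libraries. It rose by 1.22 ± 0.29 (log2 fold change ± SE; limma adjusted p = 0.0260), with no overlap between groups. Rps27a, made as a fusion with ubiquitin that is cut after translation, stood at 188, 101, 212 and 162 against 276, 258, 390 and 415. Its groups were also apart, and it rose by 1.03 ± 0.26 (log2 fold change ± SE; limma adjusted p = 0.0339).

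Rps3a1, a protein near the exit of the messenger RNA channel, was the most strongly expressed of the 8 by deposited value, at 414, 274, 454 and 232 in naive and 554, 529, 763 and 827 in cast libraries. It rose by 0.99 ± 0.27 (log2 fold change ± SE; limma adjusted p = 0.0414), and the lowest cast value lay above the highest naive value. Rps6, the ribosomal protein that S6 kinase phosphorylates downstream of mTOR and whose start region is printed above, stood at 307, 220, 372 and 300.1 against 428, 440, 639 and 702. It rose by 0.87 ± 0.24 (log2 fold change ± SE; 1.83-fold; limma adjusted p = 0.0429), and by 0.88 without naive replicate 4 (adjusted p = 0.0357). Rps6 and Rps3a1 stood nearest the threshold, and leaving out any 1 of 6 libraries raised the adjusted p of each above 0.05.

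The other small subunit genes described here did not pass over all 8 libraries, and the value of naive replicate 4 differed between them. Rps4x, the X-linked form of a protein of the small subunit body, stood at 436, 293, 539 and 97.0 in naive and 528, 628, 903 and 1035 in cast libraries. Its naive replicate 4 lay far below the other naive libraries, and naive replicate 3 overlapped with cast replicate 1. The log2 fold change was 1.38 ± 0.49 (SE; limma adjusted p = 0.102), and 0.86 (adjusted p = 0.0659) without naive replicate 4. Rps24 stood at 287, 181, 343 and 102 against 363, 423, 593 and 666, again with a low naive replicate 4. Its log2 fold change of 1.26 had an adjusted p of 0.0570 by limma and 0.0149 by DESeq2, and 0.0454 by limma without naive replicate 4.

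In most other small subunit genes naive replicate 4 was instead the highest naive library. Rps3, which lies at the messenger RNA entry and also has a known part in DNA repair, stood at 260, 179, 304 and 561 in naive and 351, 389, 603 and 651 in cast libraries. Its fold change of 0.69 (log2) did not pass (limma adjusted p = 0.253), but the 4 cast values all lay above naive replicates 1 to 3, and it rose by 0.99 without naive replicate 4 (adjusted p = 0.0325). Rps19, the gene most often mutated in Diamond-Blackfan anaemia, stood at 153, 94.5, 208 and 299.5 against 211, 288, 462 and 473. It rose by 1.23 without naive replicate 4 (limma adjusted p = 0.0341), with an adjusted p of 0.137 over all 8 libraries. Rps28 and Rps12 were higher by 1.0 and 1.18 without naive replicate 4 (limma adjusted p = 0.0302 and 0.0132), and neither passed over all 8 libraries (0.131 and 0.0868).

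Rps29, a small zinc-binding protein of the small subunit, stood at 209, 93.2, 239 and 529.8 in naive and 214, 258, 391 and 397 in cast libraries. The highest of all 8 values was naive replicate 4, and the test was not passed with it (log2 fold change 0.45, limma adjusted p = 0.581) or without it (0.86, adjusted p = 0.113). Rps14 stood at 273, 155, 342 and 574 against 388, 337, 525 and 576, so that naive replicate 4 lay above 3 of the 4 cast libraries. It passed neither with that library (log2 fold change 0.56, limma adjusted p = 0.374) nor without it (0.87, adjusted p = 0.0651).

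Among large subunit genes, Rpl36a and Rpl17 passed over all 8 libraries. Rpl36a, a small protein near the site where the spent transfer RNA leaves, stood at 68.7, 45.5, 92.4 and 80.2 in naive and 118, 124, 203 and 210.3 in cast libraries. The groups did not overlap, and it rose by 1.18 ± 0.28 (log2 fold change ± SE; 2.26-fold; limma adjusted p = 0.0242). Rpl17, a protein at the mouth of the exit tunnel for new chains, stood at 199, 135, 243 and 259 against 330.3, 337, 463 and 539. It rose by 1.01 ± 0.26 (log2 fold change ± SE; 2.01-fold; limma adjusted p = 0.0325), and here naive replicate 4 was the highest naive library but still under every cast library.

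Rpl5 and Rpl11 carry the large subunit's own small RNA into the ribosome and are known to bind MDM2 when assembly fails. Rpl5 stood at 313, 221, 380.1 and 354 in naive and 443, 443, 646 and 703 in cast libraries, with no overlap, yet its log2 fold change of 0.81 had a limma adjusted p of 0.0589 (0.0358 without naive replicate 4). Rpl11 stood at 189, 133, 229 and 312 against 244, 256, 363 and 392, and its log2 fold change of 0.57 did not pass (limma adjusted p = 0.228), while without naive replicate 4 it rose by 0.77 (adjusted p = 0.0499). Rpl13a, a protein also known for repressing translation of inflammatory transcripts, rose by 1.01 without naive replicate 4 (limma adjusted p = 0.0318), and Rpl38, known for its part in patterning of the axial skeleton, by 1.04 (adjusted p = 0.0350). Over all 8 libraries their adjusted p was 0.147 and 0.199.

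Rpl39, one of the smallest large subunit proteins and part of the exit tunnel, had the lowest value of naive replicate 4 relative to the other naive libraries. It stood at 121, 51.5, 152 and 2.59 in naive and 161, 178, 289 and 298 in cast libraries, and the value of 2.59 rested on 4 reads. Its log2 fold change was 2.37 ± 1.0 over all 8 libraries (SE; limma adjusted p = 0.167) and 1.18 ± 0.37 without naive replicate 4 (adjusted p = 0.0550). Every cast value was above every naive value with and without that library, and neither fit passed. Rpl7, a protein of the large subunit, was likewise low in naive replicate 4, at 357, 248, 405 and 169 against 451, 449, 685 and 699.6, with adjusted p of 0.0603 and 0.0567.

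The P stalk recruits elongation factors to the ribosome and is formed by RPLP0 with pairs of RPLP1 and RPLP2. Rplp0 stood at 564, 484, 656 and 1256 in naive and 919, 1182, 1633 and 1688 in cast libraries. Naive replicate 4 lay above cast replicates 1 and 2, and the log2 fold change was 0.93 (limma adjusted p = 0.107) with it and 1.22 (adjusted p = 0.0106) without it. Rplp2 stood at 110.3, 103, 159 and 182 against 167, 224, 249 and 264, and rose by 0.87 without naive replicate 4 (limma adjusted p = 0.0196; 0.0790 with it). Rplp1 stood at 285, 167, 326 and 589 against 326, 410.3, 660.5 and 668, and passed in neither fit (adjusted p = 0.305 and 0.0577). Naive replicate 4 was the highest naive library for all 3 stalk genes.

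Divided by transcript length, the members with the highest mean over the 8 libraries were Rpl41 at 1269 per kilobase, Rplp1 at 859, Rps12 at 813, Rpl10 at 792, Rplp0 at 771 and Rps29 at 747. RPL41 is the shortest protein of the ribosome. Its gene stood at 361, 227, 404 and 880 in naive and 528, 532, 771 and 733 in cast libraries. The highest of the 8 values was that of naive replicate 4, and the gene rose without it (log2 fold change 0.97, limma adjusted p = 0.0223) and did not pass with it (0.61, adjusted p = 0.338). Rpl10, which completes the large subunit late in its assembly, stood at 500.3, 351, 582 and 636 against 506, 620.1, 866 and 1003. Its groups overlapped with and without naive replicate 4, and its log2 fold changes of 0.52 and 0.63 did not pass (adjusted p = 0.276 and 0.144).

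A few members were measured at very low values. Rps27 was listed at 1.36, 2.58, 1.65 and 3.23 in naive and 0.989, 1.95, 2.05 and 3.07 in cast libraries, whereas Rps27rt, its near copy, was listed at 142, 89.7, 229 and 435 against 253, 264, 356 and 442. Of the 50-base stretches of the Rps27 transcript in GENCODE M21, 98.7% also occur in a transcript of another gene, with Rps27rt the closest, so how reads were divided between this pair is uncertain. Rps27rt rose without naive replicate 4 (log2 fold change 1.16, limma adjusted p = 0.0315), and Rps27 did not differ detectably in either fit (adjusted p = 0.865 and 0.925). Rpl26 stood at 2.11, 2.26, 0 and 9.06 in naive and 2.31, 12.6, 19.4 and 15.3 in cast libraries. Its groups overlapped only through naive replicate 4. However, cast replicate 1 lay above naive replicate 2 by less than 1 read was worth (0.165 and 0.161 in those libraries), so that separation is not resolved. Rpl26 rose by 2.35 ± 0.64 without naive replicate 4 (log2 fold change ± SE; limma adjusted p = 0.0337; 0.151 with it). Shared sequence is common in this family: 50 of 86 members had at least 50% of their 50-base stretches in a transcript of another gene, usually a processed pseudogene, and 4 had none. Levels of single members are therefore uncertain. The processing notes name RSEM, which divides shared reads, but not the annotation used or how its estimates became whole numbers. One of the pseudogenes left out by the rule, Rpl34-ps1, had a mean of 198, far above that of Rpl34 itself, which ran from 7.74 to 42.9.

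GC content went with the value of naive replicate 4 relative to the other naive libraries. Over the 76 subunit and stalk genes, the 25 of lowest GC (41.3% to 49.5%) had a median deviation of 0.39 on the log2 scale in naive replicate 4, the 25 in the middle (50% to 53.6%) 0.72, and the 26 of highest GC (53.6% to 60.8%) 1.13. Of the low-GC genes 8 lay below the mean of naive replicates 1 to 3, against 1 in the middle and 0 of the highest. In the mean of the cast libraries the same sets stood at 0.92, 0.95 and 0.95, with no such order. Of the 8 genes that passed over all 8 libraries, 6 were in the lowest GC set, 2 in the middle and 0 in the highest, whereas 16 in each set passed without naive replicate 4. Across the 86 members Pearson's r between GC content and deviation was 0.41 in naive replicate 4 (Spearman's rho 0.49) and -0.10 for the cast mean, and across all 14527 annotated genes tested it was 0.62 in naive replicate 4. These are correlations across genes of the same library, which are not independent replicates. Naive replicate 4 is itself among the values tested over all 8 libraries, so the order of the calls by GC content is a description only.

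**Figure D4:**
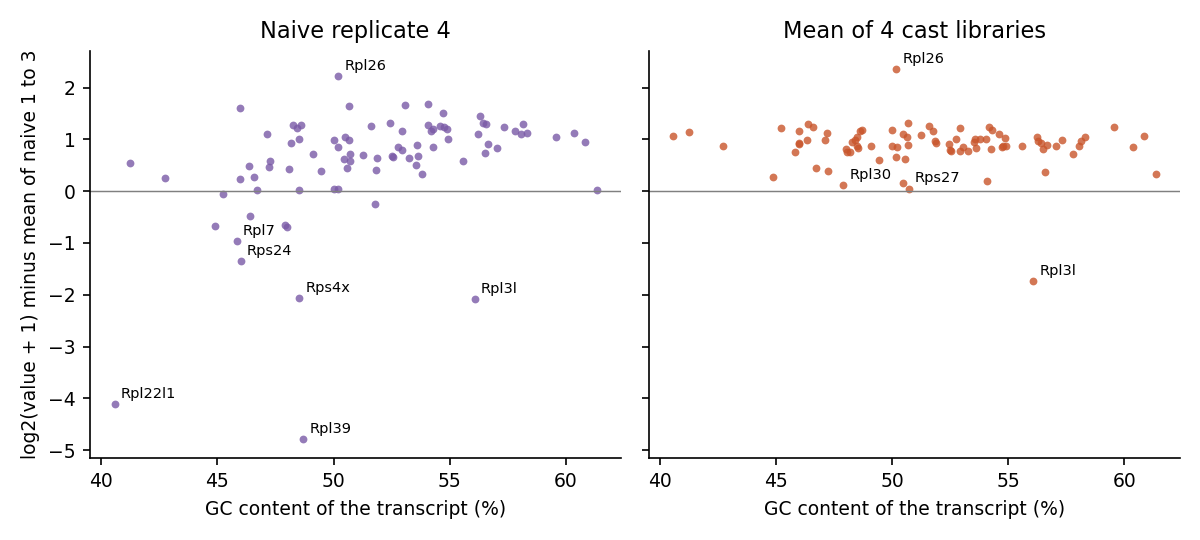
GC content of the transcript (horizontal axis, percent) against the deviation from the mean of naive replicates 1 to 3 on the log2(value + 1) scale (vertical axis), for naive replicate 4 (left) and the mean of the 4 cast libraries (right), with 1 point per gene for the 86 members. Low-GC members lie lower in naive replicate 4 (r = 0.41) and no such slope is seen in the cast mean (r = -0.10).

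Several ribosomal proteins have a paralog that can take their place, and the share of the paralog in the reads of a pair does not depend on how libraries were scaled. It does depend on how reads shared with other genes were divided. Of the 50-base stretches, 24.5% of Rpl22 and 57.3% of Rpl22l1 were shared with another gene. For Rpl36a and Rpl36al it was 85.5% and 63.3%, and for Rpl7 and Rpl7l1 53.3% and 12.2%. RPL22L1 can replace RPL22, a large subunit protein known from T cell development. Rpl22l1 stood at 17.9, 11.0, 21.8 and 0 in naive and 28.7, 26.7, 51.1 and 39.6 in cast libraries. Rpl22 stood at 106, 74.2, 127 and 149 against 103, 109.6, 154 and 170, with overlapping groups (log2 fold change 0.24, limma adjusted p = 0.595; 0.38 and 0.293 without naive replicate 4). Rpl22l1 made up 14.5%, 12.9% and 14.6% of the pair in naive replicates 1 to 3, 0 of 231 reads in naive replicate 4, and 21.9%, 19.6%, 24.9% and 18.9% in the cast libraries. A count of 0 of 231 reads allows a share of up to 1.30%, for counting error only. Every cast share was above every naive share, which gives p = 0.0286 in a two-sided exact permutation test over 70 assignments, the smallest that 4 against 4 libraries allow, and an adjusted p of 0.0667 over 7 pairs. Rpl22l1 itself rose by 1.07 ± 0.28 without naive replicate 4 (log2 fold change ± SE; 2.10-fold; limma adjusted p = 0.0286), and over all 8 libraries the log2 fold change of 2.10 ± 0.86 did not pass (adjusted p = 0.151). Its transcript had the lowest GC content of the 86 members, at 40.6%.

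In the pairs Rpl36a with Rpl36al and Rpl7 with Rpl7l1 the share of the paralog was lower in cast libraries. Rpl36al, an autosomal copy of the X-linked Rpl36a, made up 33.4%, 43.4%, 36.8% and 47.9% of the pair in naive and 26%, 31.8%, 29.1% and 28.4% in cast libraries. Rpl7l1, a protein related to RPL7 that is known from ribosome assembly, made up 13.5%, 15.9%, 11.1% and 31.9% in naive and 8.18%, 10.3%, 9.51% and 9.14% in cast libraries. In both pairs every cast share lay below every naive share (exact permutation p = 0.0286, adjusted p = 0.0667 for each). Both paralogs had a higher GC content than their partners (Rpl36al 50.2% against 46.6%, Rpl7l1 50.5% against 45.8%), and naive replicate 4 had the highest share of each. The paralogs themselves did not pass: Rpl36al had a log2 fold change of 0.44 (limma adjusted p = 0.408) and Rpl7l1 of 0.00 (adjusted p = 0.996), beside 1.18 for Rpl36a and 1.0 for Rpl7 (adjusted p = 0.0603). Without naive replicate 4, the shares of Rpl22l1, Rpl36al, Rpl7l1 and Rpl3l each had an adjusted p of 0.05 by the exact test. Without naive replicate 3 so did those of Rpl22l1, Rpl36al, Rpl7l1 and Rpl39l. The Rpl39l result includes naive replicate 4, whose share was 50% on 4 of 8 reads. Without naive replicate 4 the exact permutation p for Rpl39l was 0.2, before adjustment. Without any 1 cast library none of the 7 shares passed.

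Rpl3l replaces Rpl3 in the ribosomes of skeletal and heart muscle, and it was the member that fell. It stood at 2.26, 2.58, 5.62 and 0 in naive and 0.824, 0.150, 0 and 0.267 in cast libraries. Its log2 fold change was -1.22 ± 0.51 over all 8 libraries (SE; limma adjusted p = 0.160) and -1.74 ± 0.31 without naive replicate 4 (adjusted p = 0.00591), and edgeR (0.0339) and DESeq2 (0.00642) called it lower over all 8 libraries. Naive replicates 1 to 3, where it was highest, were also the libraries with the highest muscle levels, and naive replicate 4 and cast replicate 3, where it was at 0, had low ones. Its share of the pair with Rpl3 was 0.585%, 0.850% and 1.24% in naive replicates 1 to 3 and at most 0.147% in cast libraries, with 0 of 897 reads in naive replicate 4 (which allows up to 0.334%, for counting error only) and an adjusted p of 0.167 by the exact permutation test (0.05 without naive replicate 4). Rpl3 itself rose without naive replicate 4 (log2 fold change 0.94, limma adjusted p = 0.0260). It stood at 384, 301, 448 and 580.2 against 560.4, 574, 849 and 957.

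The remaining pairs gave no call. Rps4l made up 2.79%, 5.47%, 2.72% and 13.3% of its pair with Rps4x in naive and 1.73% to 3.43% in cast libraries (exact permutation test, adjusted p = 0.167). Rpl39l made up 2.44%, 4.49% and 1.39% of its pair with Rpl39 in naive replicates 1 to 3 and 1.5% to 2.01% in cast libraries (adjusted p = 0.167 by the same exact test), and 4 of 8 reads in naive replicate 4. Rps27l, a target of p53, made up 81.5% to 94.9% of its pair with Rps27 in naive and 92.0% to 95.7% in cast libraries (adjusted p = 0.314 by the same exact test), a share that rests on the uncertain value of Rps27. Rpl37rt, at 0.484 to 4.53 over all libraries, had a log2 fold change of -0.13 (limma adjusted p = 0.863), and Rps19bp1 one of 0.05 (adjusted p = 0.936).

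**Figure D5:**
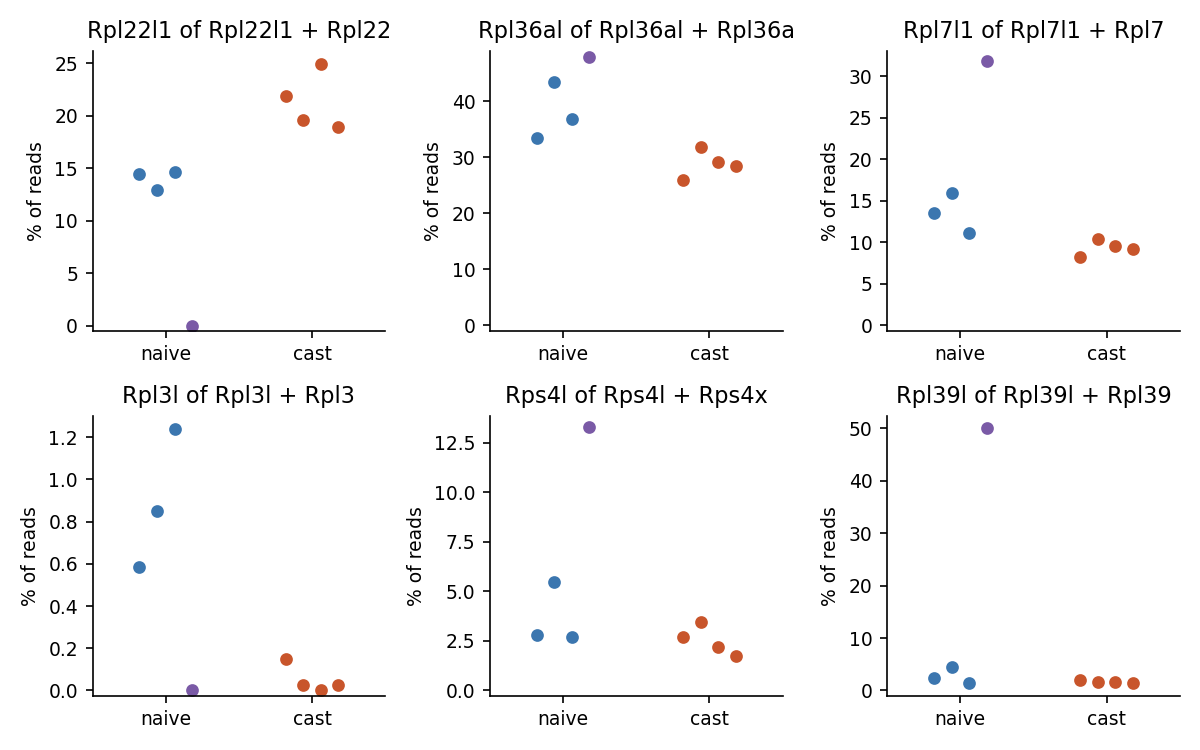
Share of the paralog in the reads of 6 pairs (vertical axes, percent), 1 point per library, for naive (left of each panel, replicate 4 in purple) and cast libraries (right). Cast shares lie wholly above naive shares for Rpl22l1 and wholly below for Rpl36al and Rpl7l1.

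Rpsa and Fau encode ribosomal proteins whose symbols lie outside the pattern, and their values were like those of the members. Rpsa, a small subunit protein that is also known as a laminin receptor, stood at 492, 370, 544 and 809 in naive and 692, 799, 1158 and 1179 in cast libraries. Fau, which encodes a small subunit protein fused to a ubiquitin-like protein, stood at 199.7, 118, 251 and 402 against 300.3, 270.2, 430.3 and 473. For both, naive replicate 4 was the highest naive library and lay above cast replicates 1 and 2. Neither passed over all 8 libraries (log2 fold change 0.81 for Rpsa and 0.70 for Fau, limma adjusted p = 0.103 and 0.250), and both rose without naive replicate 4, by 1.01 and 0.98 (adjusted p = 0.0206 and 0.0418). Other genes known for a TOP motif were tested as a list of 17 elongation factors, initiation factors and related genes. Of these, 4 rose and none fell over all 8 libraries, with a median log2 fold change of 0.55, and 6 rose without naive replicate 4, with a median of 0.65. Over all genes tested, 6.51% and 9.15% rose in these fits and the medians were 0.07 and 0.01. The 4 were Pabpc1, the poly(A)-binding protein (0.90, limma adjusted p = 0.0118), Eef1b2, an exchange factor of elongation (1.22, 0.0135), Npm1, a nucleolar chaperone (1.08, 0.0152), and Btf3, part of the complex that meets new chains at the exit tunnel (0.75, 0.0365). Pabpc1 stood at 364, 408, 370 and 367 in naive and 834, 695, 728 and 577 in cast libraries, so naive replicate 4 did not stand apart for it. The abundant elongation factors did not pass: Eef1a1 had a log2 fold change of 0.39 (limma adjusted p = 0.498) and Eef2 of 0.31 (adjusted p = 0.544), and without naive replicate 4 of 0.56 (0.289) and 0.54 (0.126).

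Genes that build ribosomes or control their synthesis showed smaller differences. Of 31 ribosome biogenesis genes, 1 rose over all 8 libraries (6.51% of all genes), the nucleolar GTPase gene Gnl3 (log2 fold change 1.06, limma adjusted p = 0.0403), and the median of the list was 0.23. Without naive replicate 4, 3 of 31 rose (Gnl3, Nhp2 and Pes1; 9.15% of all genes) and the median was 0.24, so these counts were near or under the background. None of 15 regulators passed limma's test in either fit, with 2 and 3 at an unadjusted p under 0.05 in either direction (26.6% and 32.7% of all genes). Myc, a transcription factor that drives ribosome synthesis, stood at 30.6, 24.8, 16.5 and 23.3 against 42.2, 29.8, 31.1 and 27.2 (log2 fold change 0.45, limma adjusted p = 0.241). Mtor (-0.40, adjusted p = 0.172) and Larp1 (-0.16, adjusted p = 0.617) did not pass. Of 77 genes for proteins of the mitochondrial ribosome, which is built apart from the cytosolic ribosome, none passed limma's test in either fit, with 4 and 8 at an unadjusted p under 0.05 (26.6% and 32.7% of all genes), and the median log2 fold change was 0.08 over all 8 libraries and 0.15 without naive replicate 4. Next to the medians of 0.72 and 0.92 for the cytosolic set, the mitochondrial set stood close to the medians of all genes tested.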

How the data were processed

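The table that the authors deposited holds signal values, reads scaled between 8 libraries, for 16464 genes. Per the labels' protocols, 200 ng of RNA was depleted of ribosomal RNA, and directional libraries were read as pairs of 150 nt. The protocol text gives Trimmomatic 0.38 and the human build hg38, and the submitters' processing notes give Trimmomatic 0.36, Bowtie2, RSEM, edgeR and mm10. The symbols are those of mouse genes. Strand use in counting, and the annotation, are not given in the sources here, so genes overlapping on opposite strands are uncertain. Each value was a whole multiple, within 0.01, of what 1 read was worth for 100% of values.

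The main test was limma 3.58.1 (R 4.3.3) with a mean-variance trend on log2(value + 1), unweighted, over the 15120 genes with a mean of at least 0.5, with Benjamini-Hochberg adjustment over all of them and a threshold of 0.05. Fold changes are on that scale, which understates the change of low genes. Recovered reads were tested with edgeR 4.0.16 and DESeq2 1.42.0, giving 1102 and 1464 genes higher and 937 and 1290 lower in cast libraries. Paralog shares were compared by exact permutation. Coordinates, transcript length and GC content came from the shortest principal coding transcript of GENCODE M21 (GRCm38), and start regions from RefSeq. The limma and edgeR fits were also run on simulated data, with genes drawn independently and no GC trend in any library. That run does not bear on how the calls change without naive replicate 4.

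Members, lists and tests were chosen with earlier results of these data known. Named members are those past the threshold, the 6 of smallest p, the 4 highest and 4 lowest fold changes, the 6 highest per kilobase, the paralog pairs and a fixed panel of 16. Rps27rt, Rpl34 and Rpl34-ps1 were named after their values were seen. Rack1 and the pair of Rpl10 with Rpl10l were not analysed here. Some results are not reported here.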

Additional observations from a re-analysis of the deposited data

Results flagged for a closer look

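Groups of 4 libraries were searched for a library far from the other 3 (gap to the nearest over the range, above Dixon's 95% critical value), and 3 of 100 groups had such a library, where chance gives about 1 in 20. The share of Rpl22l1 in its pair with Rpl22 was 0% in naive replicate 4, against 12.9% to 14.6% in the other naive libraries, on 0 of 231 reads. The share of Rpl39l in its pair with Rpl39 was 50% in naive replicate 4, on 4 of 8 reads (95% exact binomial interval 15.7% to 84.3%, counting error only), against 1.39% to 4.49% in the other naive libraries. In the cast group the same share was 2.01% in replicate 1, against 1.5% to 1.58% in the other 3 libraries.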

How the results depend on the processing

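The number of members higher in cast libraries was 8. It stayed within 1.5 times of 8 with other pseudocounts, other filters on low values, scaling by median-of-ratios or trimmed means, no trend, the transcript length trend removed and edgeR. The muscle covariate also gave 8, but only 3 of these were among the 8 of the main test, and 19.0% of all genes rose with it. The number was 14 under quantile normalisation, 73 with array weights, 18 with the GC trend removed and 22 with DESeq2. Rpl3l was the 1 member lower under quantile normalisation, array weights, edgeR and DESeq2. Less naive replicate 4 (settings chosen after seeing the data), 44 rose by edgeR (9.31% of all genes) and 46 with the GC trend removed (9.66%). The length trend removed gave 53 (9.70%) and the muscle covariate 0 (0.0463%), with 1 lower in all but the last. Leaving out each library gave 0 to 50 members higher, 0 to 1 lower and a median log2 fold change of 0.49 to 0.92, and the muscle covariate gave a median of 0.16. Over all genes, 984 rose and 826 fell: 512 to 1384 and 408 to 1288 when each library was left out, 2168 and 1817 with array weights, 2867 and 1393 with the muscle covariate, 7 and 15 with it less naive replicate 4, 1290 lower with DESeq2, and 1422 and 1310 lower with the GC and length trends removed less naive replicate 4. The cause of these differences was not tested.

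Leaving out each library moved the cast minus naive difference in paralog share, in percentage points, from -0.84 to -0.43 (Rpl3l), 7.33 to 12.2 (Rpl22l1), -17.3 to -1.11 (Rpl39l), 1.21 to 5.69 (Rps27l), -13.9 to -9.07 (Rpl36al), -11.1 to -4.23 (Rpl7l1) and -4.67 to -1.15 (Rps4l). With the replicate number as a replicate block, 17 members rose (5.17% of all genes), but same-numbered libraries deviated together with correlations of only 0.0797, 0.0353, -0.0571 and -0.0214, so the numbers were not taken to pair the libraries.

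Of 1089 single-gene values under an alternative, 897 kept direction and side of the threshold, 47 no longer passed, 110 newly passed and 35 changed sign, the last all in genes that had not passed over all 8 libraries. Over all 8 libraries the fit with the muscle covariate leaned on naive replicate 4, the only naive library with a muscle level like the cast libraries. With the muscle covariate the log2 fold change was -0.48 for Rpl26, 0.41 for Rpl3l, -0.54 for Rpl7l1, -0.60 for Rps29, -0.19 for Rplp1, -0.28 for Rpl41, -0.12 for Rpl22, -0.27 for Rpl36al, -0.11 for Rps3 and -0.0902 for Rps14. With it and less naive replicate 4 it was -1.44 for Rpl26, 0.25 for Rpl37rt, -0.53 for Rpl7l1, -0.0801 for Rpl36al and -0.58 for Rps4l. Rpl37rt was at 0.0804 with array weights and, less naive replicate 4, at 0.25 by edgeR and 0.19 with the GC trend removed. Rps27 was at 0.15, 0.13 and 0.0539 in the same 3 settings. Rpl7l1 was at -0.00297 with median-of-ratios scaling, -0.0032 with trimmed-mean scaling without the members, -0.011 with quantile normalisation and -0.10 with the length trend removed. Leaving out each library gave -0.44 to 0.19 for Rpl37rt, -0.26 to 0.0885 for Rps27 and -0.11 to 0.167 for Rpl7l1. With the length trend removed Rpl22 was at -0.0447, and Rps27l at -0.00831 less naive replicate 4. Depth limits Rpl3l, Rpl37rt, Rps27, Rpl39l and Rpl26, and all values of naive replicate 4.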
